A study of Mus musculus with 4 samples.

Results

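The collagen chain genes were taken as all rows whose symbol was Col, a number, the letter a and a number. This gave 43 of the 25965 genes in the table. Col26a1 stood there under its older symbol Emid2, fell outside that rule, and had 26, 19, 7 and 19 reads in libraries 1 to 4. The cells were vascular smooth muscle cells, the contractile cells of the artery wall, grown out of the media of aortas from wild-type C57Bl/6 mice, male and 8 to 14 weeks old. After enzymatic release the cells had been kept in medium with fetal calf serum and passaged 3 to 5 times. The labels gave 4 libraries of this 1 group, no treatment, and no uncultured or other control, so no comparison between conditions existed. They did not say whether the libraries came from separate animals or cultures, so the spread between these samples may be technical. The p-values below thus describe only how far differences agree in sign and size among these samples.

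Collagens are built from chains of glycine-led triplets that wind into a triple helix. The chains differ in what the helices assemble into. Fibrillar chains form the banded fibrils that carry load in the artery wall, and basement membrane chains form the sheet-like type IV network around each smooth muscle cell. Type VI chains form beaded filaments, FACIT chains (fibril-associated collagens with interrupted triple helices) sit on the surface of fibrils, and transmembrane chains span the plasma membrane. Types VIII and X form hexagonal networks, type VII forms anchoring fibrils, and the multiplexins (types XV and XVIII) lie at basement membranes.

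The libraries held 40342561 to 56793195 reads on genes, with the lowest number in library 3. Mitochondrial genes took 0.0653% to 0.382% of the reads, with the highest share also in library 3. A level is the deposited log2 value, a read count scaled for its library and not divided by gene length, and per-kilobase levels were also divided by the combined exon length of the gene. The libraries were not equally scaled: against median-ratio size factors, which centre each library on its typical gene, the deposited values were offset by 0.34, 0.11, -0.28 and -0.10 in libraries 1 to 4. Statements below on which library was highest or lowest hold under both scalings unless said otherwise. A gene counted as detected with a level of at least 0 in 4 of 4 libraries, which took 30, 29, 22 and 30 reads. All 6 smooth muscle markers were detected, against 47.4% of all genes. The summed linear level of Acta2, Tagln, Cnn1, Myh11, Smtn and Actg2 was 7652, 3511, 11106 and 15643 in libraries 1 to 4.

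Cultured smooth muscle cells had reads for most collagen genes, and 35 of the 43 were detected (81.4%), against 47.4% of all genes. All genes here include numbered gene models. Among matched coding genes with an annotated 3′ untranslated region, 34 of 42 collagen genes were detected, against 10481 of 18317. All 11 fibrillar genes, all 6 basement membrane genes, all 3 hexagonal network genes, both multiplexins, Col7a1 and Col28a1 were detected. Among FACIT genes 7 of 9 were detected, among beaded filament genes 3 of 6, and among transmembrane genes 1 of 4. Collagen genes took 4.87%, 3.55%, 3.68% and 4.74% of the reads on genes in libraries 1 to 4 (4.21% ± 0.69, SD, n = 4), or 1.69% ± 0.36 with each gene divided by its exon length. A mean level of at least 10 was reached by 12 of the 35 detected collagen genes, and by 2.20% of all detected genes. The median of all 43 was 6.35 ± 0.46 (SD, n = 4), and that of all 12306 detected genes 5.11 ± 0.31.

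**Figure D1:**
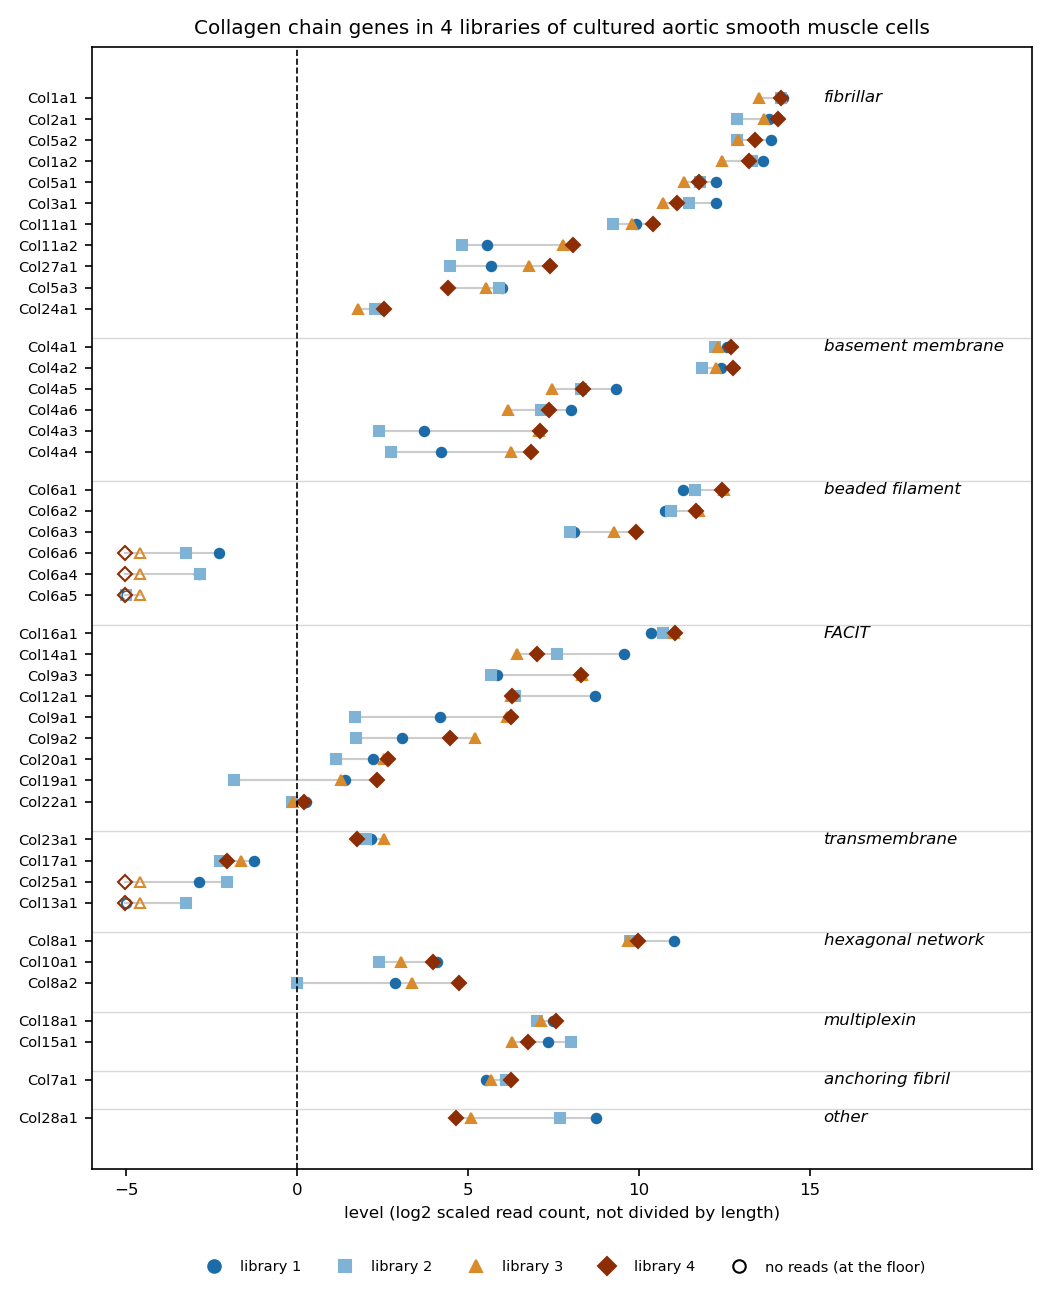
Level of each of the 43 collagen chain genes (log2 scaled read count, horizontal axis) in libraries 1 to 4, grouped by structural class; open symbols are genes without reads and the dashed line is the detection threshold. The 11 fibrillar and 6 basement membrane genes lie right of the line in every library, while 3 beaded filament and 3 transmembrane genes lie left of it.

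Many exons of these genes repeat the same unit, most often in fibrillar genes. Genes with a Col symbol encode chains of glycine-led triplets, so triplets in their exons follow from the choice of members. In the reference annotation (GENCODE M21, GRCm38), 305 of 627 internal coding exons of fibrillar genes were exactly 54 bases long (48.6%), which is 6 glycine-led triplets. In FACIT genes the share was 26.4%, in beaded filament genes 8.37%, in multiplexins 5.19% and in basement membrane genes 4.23%. In all 43 genes it was 24.7% (469 of 1901), and in all coding genes matched 0.762% (1080 of 141773). Lengths in multiples of 9 bases made up 83.9% of fibrillar exons and 14.3% of those of all genes. Of the 469 exons of 54 bases in collagen genes, 452 (96.4%) had GG at the first base of each 9, where a GGN codon for glycine falls, against 0 of 611 in other genes. One exon of 6 detected genes is shown to compare classes, written along the transcript with the GGN codon that opens each 9 bases in capitals.
Col3a1 exon 6 (fibrillar, chr1:45325360-45325413, plus strand): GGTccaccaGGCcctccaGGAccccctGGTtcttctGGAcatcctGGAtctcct
Col5a1 exon 15 (fibrillar, chr2:27965251-27965304, plus strand): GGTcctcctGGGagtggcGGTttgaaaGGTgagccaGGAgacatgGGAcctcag
Col24a1 exon 4 (fibrillar, chr3:145320661-145320714, plus strand): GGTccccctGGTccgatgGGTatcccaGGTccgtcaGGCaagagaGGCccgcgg
Col16a1 exon 34 (FACIT, chr4:130067219-130067272, plus strand): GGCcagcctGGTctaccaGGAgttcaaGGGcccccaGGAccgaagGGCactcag
Col4a1 exon 7 (basement membrane, chr8:11245211-11245264, minus strand): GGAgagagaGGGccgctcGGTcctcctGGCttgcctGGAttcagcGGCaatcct
Col6a2 exon 6 (beaded filament, chr10:76611948-76612001, minus strand): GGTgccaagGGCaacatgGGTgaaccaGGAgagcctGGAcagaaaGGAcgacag
These 6 exons, from genes of 4 classes, were chosen among those with this spacing of GGN codons, and the bases between the codons differed. Basement membrane genes had 12 such exons among 284 internal ones. Col8a1, Col8a2 and Col10a1 had 2 coding exons each and no internal one.

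**Figure D2:**
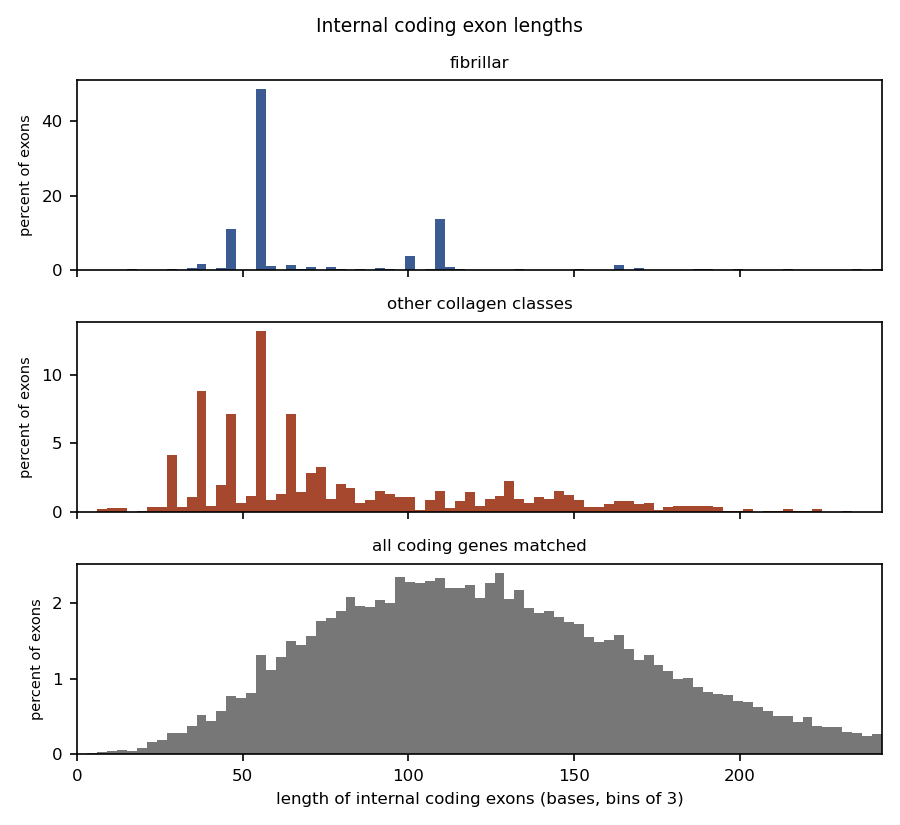
Lengths of internal coding exons (horizontal axis, bases, in bins of 3) as a percent of the exons of each set (vertical axis, different scales), for fibrillar collagen genes, the other collagen classes and all coding genes matched. The fibrillar exons pile up at 54 bases, with 48.6% at that length, while those of all genes spread broadly.

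Fibrillar genes took most of the collagen reads, 76.1%, 73.8%, 64.2% and 69.1% in libraries 1 to 4 (70.8% ± 5.28). Col1a1, Col2a1, Col5a2 and Col1a2 together took 61.3% ± 3.78, and the 10 collagen genes with the most reads 91.7% ± 0.77. These shares are of reads, which longer transcripts give more of. Basement membrane genes took 14.3% ± 1.38, beaded filament genes 9.50% ± 4.18, FACIT genes 3.17% ± 0.56 and hexagonal network genes 1.47% ± 0.52. The beaded filament share was 4.78%, 7.94%, 14.6% and 10.7% in libraries 1 to 4, so that it was lower in libraries 1 and 2 than in 3 and 4. Each library's share needs no scaling between libraries.

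**Figure D3:**
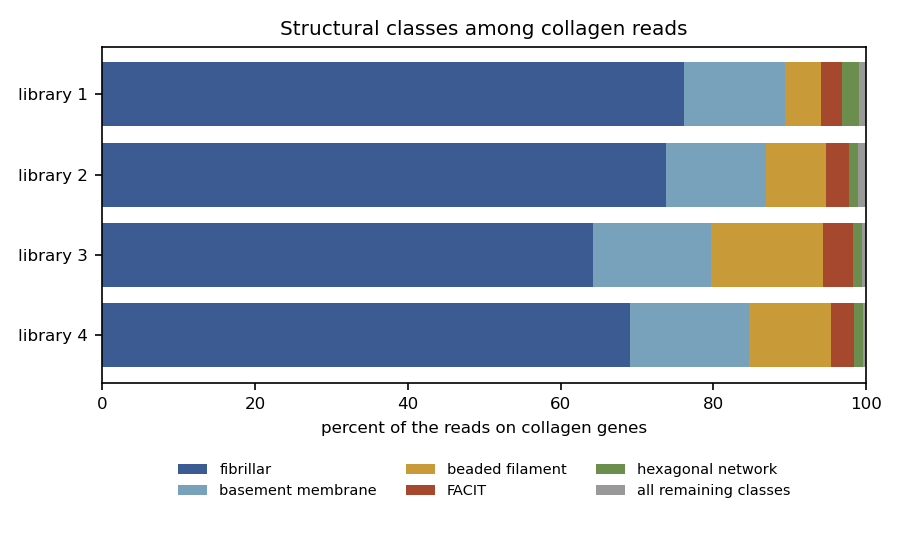
Percent of the reads on collagen genes (horizontal axis) by structural class in each of the 4 libraries. Fibrillar genes hold 64.2% to 76.1% and beaded filament genes 4.78% to 14.6%, with the widest beaded filament segment in library 3.

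Among fibrillar genes, Col1a1 encodes the chain present in most copies in type I collagen, the main fibril of the artery wall. Its level was 14.22, 14.14, 13.52 and 14.16 in libraries 1 to 4, with library 3 the lowest (14.01 ± 0.33; chr11:94936224-94953042, GRCm38). Col1a2, its partner chain, was at 13.64, 13.31, 12.42 and 13.23 and was also lowest in library 3 (13.15 ± 0.52; chr6:4504814-4541543). Col2a1, the type II chain best known from cartilage, was at 13.80, 12.88, 13.67 and 14.06, with library 2 the lowest and library 4 the highest (13.60 ± 0.51; chr15:97975602-98004695). Per kilobase of exon, the Col1a1 level was 11.30 ± 0.33, that of Col2a1 10.39 ± 0.51 and that of Col1a2 9.51 ± 0.52.

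Col5a1 and Col5a2 encode type V chains, which are built into type I fibrils and limit their width. Col5a2 was at 13.86, 12.87, 12.91 and 13.40, and Col5a1 at 12.25, 11.78, 11.33 and 11.74. Both were highest in library 1. Col5a3, another type V chain, was at 5.99, 5.91, 5.53 and 4.42, with library 4 the lowest. Col3a1, the type III chain of stretchable tissues, was at 12.25, 11.45, 10.69 and 11.11, highest in library 1 and lowest in library 3. Col11a1, a type XI chain that joins type II fibrils, was at 9.90, 9.24, 9.80 and 10.40, with library 2 the lowest and library 4 the highest. Its partner Col11a2 spread much further, at 5.55, 4.81, 7.77 and 8.08. Col27a1 showed a like order at 5.68, 4.46, 6.77 and 7.39, so for both genes libraries 3 and 4 lay above libraries 1 and 2. Col24a1 was low and close between libraries, at 2.45, 2.29, 1.79 and 2.54.

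The basement membrane genes sit in the genome as pairs that lie head to head. Col4a1 and Col4a2, the chains of the common type IV network, overlapped by 22 bases in the deposited coordinates (chr8:11198423-11312826 and chr8:11312805-11449287). Col4a1 was at 12.58, 12.21, 12.32 and 12.70 and Col4a2 at 12.40, 11.85, 12.26 and 12.75. Both were lowest in library 2 and highest in library 4, and Col4a1, with an SD of 0.22, varied least of the detected collagen genes as deposited. Col4a5 and Col4a6, on chromosome X with 1308 bases between them, were at 9.34, 8.30, 7.46 and 8.35, and at 8.02, 7.13, 6.17 and 7.36. Both were highest in library 1 and lowest in library 3.

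Col4a3 and Col4a4 encode chains best known from the kidney glomerulus, and lie 71 bases apart (chr1:82586921-82722059 and chr1:82452558-82586849). Col4a3 was at 3.71, 2.39, 7.08 and 7.11, a 26.2-fold range, with the largest SD among the detected collagen genes, 2.39. Col4a4 was at 4.21, 2.75, 6.26 and 6.84 (SD 1.88). In both genes libraries 3 and 4 lay above libraries 1 and 2. The read numbers ran from 152 to 4046 for Col4a3 and from 195 to 3358 for Col4a4.

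Type VI collagen, which anchors cells to the fibrils around them, is assembled from different chains. Col6a1 was at 11.29, 11.64, 12.49 and 12.44, Col6a2 at 10.75, 10.93, 11.77 and 11.68, and Col6a3 at 8.09, 7.98, 9.27 and 9.90. For all 3 genes libraries 3 and 4 lay above libraries 1 and 2. The chains known to stand in for Col6a3 were not detected: Col6a5 had no reads in any library, which allows up to 3 reads in each, Col6a4 had at most 4 reads and Col6a6 at most 6. These 3 genes lie beside each other on chromosome 9. The class median over all 6 genes, 2.56 ± 0.25, falls between the 3 detected and the 3 undetected genes and describes neither.

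Col16a1, a FACIT chain made by fibroblasts and arterial smooth muscle cells, was at 10.36, 10.70, 11.04 and 11.05. The type IX genes Col9a1, Col9a2 and Col9a3, whose product decorates cartilage fibrils, all had libraries 3 and 4 above libraries 1 and 2. Col9a3 was at 5.85, 5.68, 8.33 and 8.31, Col9a1 at 4.17, 1.69, 6.12 and 6.25, and Col9a2 at 3.07, 1.73, 5.19 and 4.47. Col14a1 and Col12a1, related chains of fibril surfaces in tendon, skin and adventitia, went another way. Col14a1 was at 9.58, 7.59, 6.42 and 7.01, and Col12a1 at 8.71, 6.36, 6.26 and 6.30. Library 1 was the highest for both, and Col12a1 differed little among the other 3. Col20a1 was low, at 2.22, 1.12, 2.53 and 2.65. Col19a1 and Col22a1 lay just outside the threshold: Col19a1 had 76, 8, 53 and 147 reads, missing it in library 2, and Col22a1 had 35, 26, 20 and 34 reads, missing it in libraries 2 and 3.

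Of the transmembrane genes only Col23a1 was detected, at 2.17, 2.02, 2.53 and 1.74. Col17a1, the hemidesmosome collagen of epithelia, had 6 to 12 reads, while Col25a1 had at most 7 and Col13a1 at most 3. Among hexagonal network genes, Col8a1, a chain made by vascular and corneal cells, was at 11.03, 9.73, 9.68 and 9.97, with library 1 the highest. Its partner Col8a2 was at 2.86, 0.00, 3.36 and 4.74. Col8a2 lay just inside the threshold in library 2, with 29 reads and a counting error of 0.27 on the log2 scale, smaller than its SD of 1.99. Col10a1, best known from hypertrophic cartilage, was at 4.08, 2.39, 3.02 and 3.97. It overlaps Nt5dc1 on the other strand over 7105 bases, with at least 152 reads for Col10a1 and at most 303 for Nt5dc1, so its value is uncertain.

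Col18a1, the endostatin precursor gene, was close between libraries at 7.49, 7.01, 7.12 and 7.59, and Col15a1 was at 7.34, 8.01, 6.28 and 6.74 with library 2 the highest. Col7a1, the anchoring fibril chain, was at 5.52, 6.11, 5.67 and 6.25. Col28a1, a chain with von Willebrand A domains known from peripheral nerve, was at 8.74, 7.70, 5.09 and 4.65. This 17.1-fold range ran opposite to that of Col4a3, with libraries 1 and 2 above libraries 3 and 4.

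Differences between libraries exceeded an SD of 0.5 in 24 of the 35 detected collagen genes (68.6%), against 40.5% of all detected genes. An SD above 1 was found in 11, against 5.80%. With median-ratio scaling, under which 34 collagen genes were detected, 22 had an SD above 0.5, 20 of them among the 24, against 30.7% of all. The library orders that follow used the same 35 genes under both scalings. Library 2 was the lowest for 17 of the 35, against 13.2% of all detected genes as deposited and 20.2% with median-ratio scaling, under which it was again the lowest for 17. Library 4 was the highest for 16, against 10.8%, and with median-ratio scaling for 15, against 17.2%. Libraries 3 and 4 were the 2 highest for 13, against 11.4%, and with median-ratio scaling for 18, against 28.6%. These collagen shares lay above those of all genes under either scaling, and no test was made of them. Libraries 1 and 2 were the 2 highest for 8, against 51.8%, and with median-ratio scaling for 4, against 27.0%. Libraries 1 and 4 were the 2 highest for 12, against 15.6%, and with median-ratio scaling for 7, against 13.5%.

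**Figure D4:**
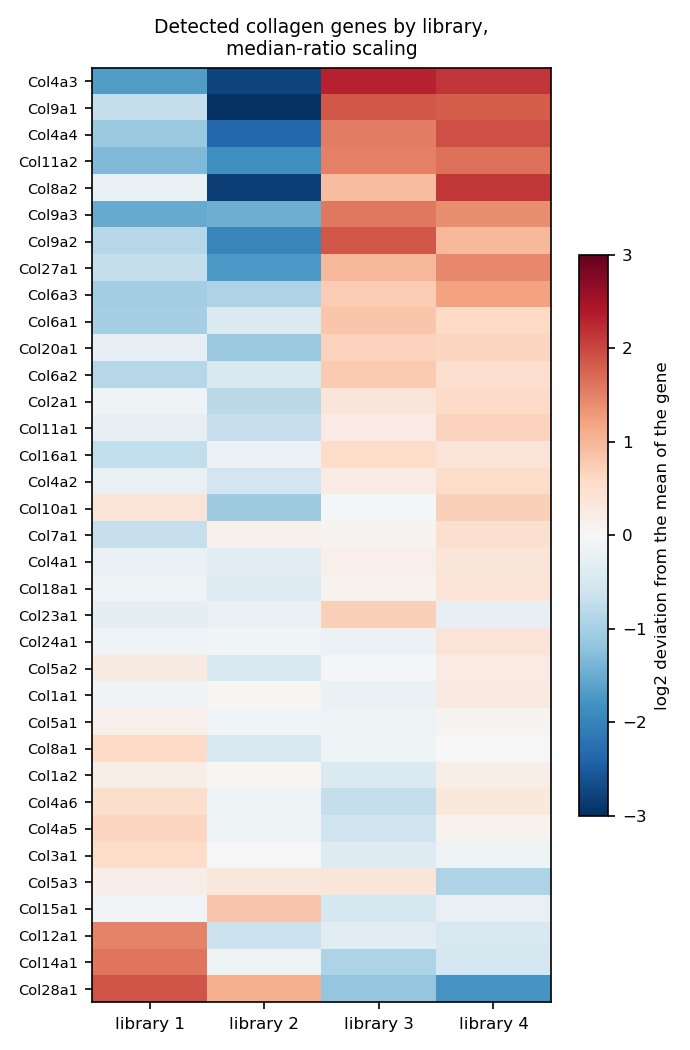
Deviation of each detected collagen gene (rows) from its own mean over libraries 1 to 4 (columns), on the log2 scale with median-ratio scaling; red is above and blue below the mean. Col4a3, Col9a1, Col4a4 and Col11a2 are red in libraries 3 and 4, and Col28a1, Col14a1 and Col12a1 are red in library 1.

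Markers of adventitial fibroblasts, the cells outside the media, moved with part of this spread. The list held Pdgfra, Dpt, Pi16, Lum, Dcn and Clec3b, with 5 of 6 detected, against 47.4% of all genes. Their summed linear level was 434, 320, 85.5 and 57.2 in libraries 1 to 4, so that libraries 1 and 2 were higher, as for Col28a1. Dpt alone was at 7.15, 7.02, 2.32 and 1.92, and Lum had 342, 111, 24 and 11 reads. Pdgfra, at 7.17, 6.77, 4.92 and 4.83, Dcn and Pi16 were also higher in libraries 1 and 2, while Clec3b, at 4.78, 4.34, 4.95 and 3.99, was highest in library 3. The summed smooth muscle markers, given above, were lowest in library 2, as for Col4a3, Col9a1 and Col11a2. The part of either in the collagen values was not tested. In bulk RNA, fewer cells of a type and less RNA per cell cannot be told apart.

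Markers of further cell types were mostly undetected or low, with S100b and Upk3b the highest on average. The 6 leukocyte markers were all undetected (summed linear level 8.57, 9.24, 1.91 and 1.74), with Cd3e and Cd79a at 0 reads throughout. Of the others, C1qa had 173, 201, 0 and 18 reads, more in libraries 1 and 2. Endothelial markers had 4 of 6 detected (51.6, 33.5, 51.4 and 16.3), against 47.4% of all genes. Of these, Tie1 averaged 3.42, Pecam1 2.95, Vwf 2.88 and Emcn 2.18. Epithelial and mesothelial markers had 2 of 5 detected (sums from 21.2 to 54), of which Upk3b had 458 to 1498 reads. Osteoblast markers had 1 of 5 detected (21.6, 13.8, 10.7 and 9.87). Schwann cell markers had 1 of 5 detected, S100b, a gene also expressed in other cell types, at 6.59, 6.68, 8.74 and 7.96, with a sum over the list of 99.2, 104, 430 and 250.1. Sox10, which defines Schwann cells, had 2, 5, 9 and 0 reads.

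The cartilage genes that accompany Col2a1 in chondrocytes were unevenly present, with 7 of 14 detected, a share near the 47.4% of all genes. Of matched coding genes with a 3′ untranslated region, 10481 of 18317 were detected. Comp, a cartilage and tendon matrix gene, was at 9.64, 9.21, 12.38 and 12.04, and Cytl1 at 3.00, 0.15, 6.09 and 6.37, both higher in libraries 3 and 4. Acan, the large cartilage proteoglycan, was at 6.62, 3.46, 5.37 and 6.79, lowest in library 2 as was Col2a1. The regulators Sox9, Sox5 and Sox6, which drive Col2a1 in cartilage, averaged 6.20 ± 0.41, 3.21 ± 0.37 and 2.89 ± 0.75. Hapln1, the link protein of cartilage, averaged 1.43 ± 0.68. The 7 undetected genes were Matn1 with 1, 4, 0 and 0 reads, Matn3 with 32, 9, 8 and 14, Ihh with 1, 0, 11 and 6, Epyc with 7, 5, 0 and 0, Ucma with 21, 14, 103 and 238, Cnmd (listed as Lect1) with 23, 7, 81 and 0, and Snorc (listed as 3110079O15Rik) with 0, 0, 4 and 0. Col2a1 itself had 217347 to 502768 reads in the same libraries.

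Chains were then compared within each library, per kilobase of exon, in 17 pairs that share a trimer, a family or a stretch of the genome. In 15 pairs the difference had 1 sign in 4 of 4 libraries. An exact permutation test that flips signs, two-sided, then gives p = 0.13 (2 of 16 arrangements), the smallest that 4 libraries allow, and an adjusted p of 0.142 (Benjamini-Hochberg over 17 pairs), so no pair could pass 0.05. The differences below are therefore given with their spread, on the log2 scale.

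Chains of the same trimer were close in some pairs and apart in others. Col4a1 minus Col4a2 was 0.00, 0.19, -0.11 and -0.23 in libraries 1 to 4 (-0.04 ± 0.18; exact p = 0.75, adjusted p = 0.797). In both the type IV and the type I trimer, the first chain is present in more copies than the second. Col1a1 exceeded Col1a2 by 1.78 ± 0.22 in 4 of 4 libraries, or 0.71 when the length of the longest transcript was used. Col6a1 exceeded Col6a2 by 1.61 ± 0.10 (0.94 with the longest transcript) and Col6a3 by 4.61 ± 0.46. Col4a5 exceeded Col4a6 by 1.44 ± 0.15, with an SD below the 0.77 that either gene had alone. Col5a1 minus Col5a2 was -1.31 ± 0.26, and Col5a1 exceeded Col5a3 by 5.99 ± 0.70.

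Between fibril types, Col1a1 exceeded Col2a1 by 0.92, 1.76, 0.35 and 0.60 (0.91 ± 0.62). With the longest transcript this difference was 0.19 with both signs among the libraries (adjusted p = 0.797 by the same exact test). The mean thus kept its sign, but the order of the type I and type II chains in single libraries depended on the length used. Col1a1 exceeded Col3a1 by 3.22 ± 0.47, or 2.54 with the longest transcript. Col2a1 exceeded Col11a1 by 4.36, 4.10, 4.33 and 4.12, and this narrow spread (SD 0.14) lay below the SD of either gene alone, 0.51 and 0.48. The same held for 9 of the 17 pairs, and a difference within a library also cancels the offset of that library. By contrast, Col2a1 exceeded Col9a1 by 8.76, 10.32, 6.68 and 6.95, and Col11a1 exceeded Col11a2 by 3.46, 3.54, 1.14 and 1.44. Col3a1 ends 24614 bases from the end of Col5a2, and Col3a1 minus Col5a2 was -1.92 ± 0.44.

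In the last pairs, Col8a1 exceeded its partner Col8a2 by 6.56 ± 1.99, and Col12a1 minus Col14a1 was -1.86 ± 0.45. Col15a1 minus Col18a1 was -0.01, 1.15, -0.70 and -0.70 (exact p = 0.875, adjusted p = 0.875). Col4a1 exceeded Col4a5, a chain of another type IV network, by 3.94 ± 0.68. Col4a3 minus Col4a4, added after their values were seen and not tested, was 0.15 ± 0.61, against SDs of 2.39 and 1.88 for the genes alone.

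**Figure D5:**
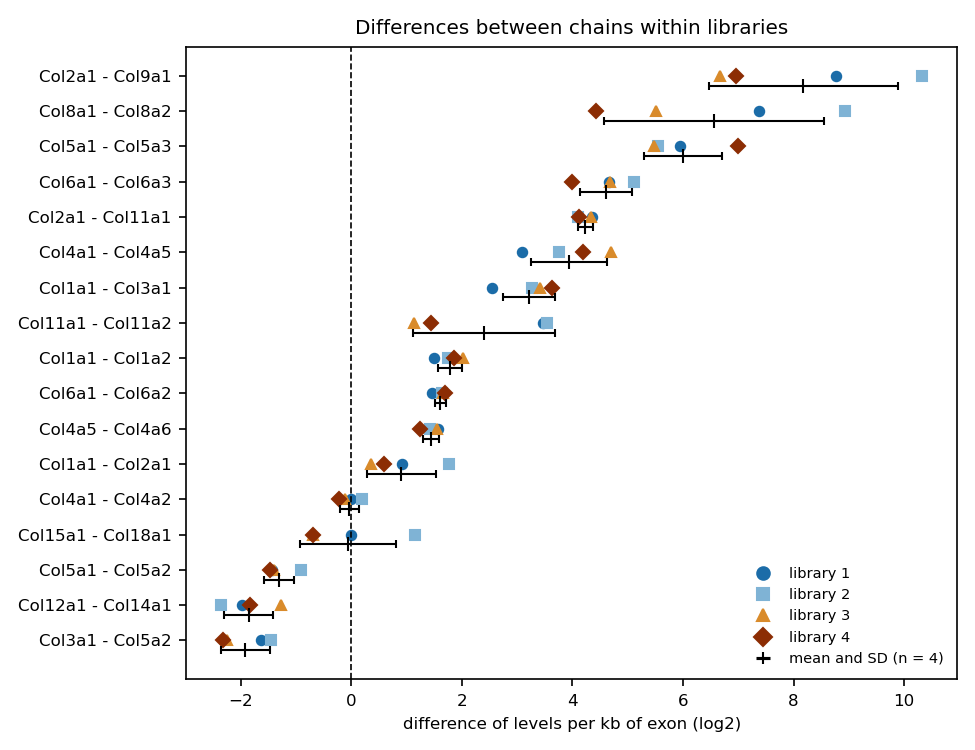
Difference between the 2 chains of each pair (horizontal axis, log2 of the level per kilobase of exon, first minus second) in libraries 1 to 4, with mean and SD (n = 4) and a dashed line at 0. In 15 pairs the 4 libraries lie on 1 side of the line, and Col4a1 minus Col4a2 and Col15a1 minus Col18a1 lie on both.

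The machinery that makes collagen was present along with the chains. Genes of folding and modification in the endoplasmic reticulum had 17 of 18 measured members detected (median level 8.00 ± 0.30), against 47.4% of all genes. All genes, here and for the lists that follow, include numbered gene models. Of matched coding genes with a 3′ untranslated region, 10481 of 18317 were detected. P4hb, a subunit of prolyl hydroxylase, was at 12.14, 12.08, 11.24 and 11.59, Serpinh1, the collagen chaperone HSP47, at 11.62, 11.31, 10.61 and 11.06, and Fkbp10, a prolyl isomerase, at 10.58, 10.80, 10.75 and 10.86. Serpinh1 and P4hb were lowest in library 3, as were Col1a1 and Col1a2. Colgalt2 (listed as Glt25d2), 1 of a pair of collagen galactosyltransferases, had 3, 6, 6 and 0 reads, against 4948 to 11026 for Colgalt1.

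Genes that trim and cross-link collagen outside the cell had 11 of 12 detected (median level 7.70 ± 0.66), against 47.4% of all genes. The undetected one was Adamts3, with 27, 21, 16 and 0 reads. Lox, the lysyl oxidase that starts cross-links, was at 11.36, 10.36, 12.01 and 11.78 and lowest in library 2. Pcolce, which enhances the removal of the C-terminal propeptide, was at 9.73, 9.74, 9.59 and 9.55, and Loxl3, a relative of Lox, at 9.86, 9.83, 8.98 and 9.28. Collagen receptors had 8 of 10 detected (median level 5.04 ± 0.89), against 47.4% of all genes. The highest were Itgb1, the integrin beta 1 chain (10.66 ± 0.41), Mrc2, an endocytic collagen receptor (9.79 ± 0.43), and Ddr2, a receptor kinase for fibrillar collagen (8.33 ± 0.61). The integrin alpha chains of the list, Itga1, Itga2, Itga10 and Itga11, were lower than Itgb1 and averaged 5.05, 3.31, 4.66 and 4.28. The undetected receptors were Gp6, known from platelets, without reads, and Lair1, known from leukocytes, with 6, 1, 0 and 0.

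MicroRNAs of the miR-29 family are known to bind the 3′ untranslated regions (UTRs) of many collagen mRNAs. Their mature forms share 1 seed, bases 2 to 8, in capitals (RefSeq, GRCm38.p6).
mmu-miR-29a-3p: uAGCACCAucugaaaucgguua
mmu-miR-29b-3p: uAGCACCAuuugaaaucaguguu
mmu-miR-29c-3p: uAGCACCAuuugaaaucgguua
The complement of that seed, TGGTGCT on the transcript strand, stood in the annotated 3′ UTR of 23 of 42 collagen genes (54.8%; Col11a2 had no annotated one). Over all 18317 matched coding genes with a 3′ UTR the share was 12.6%. Among detected genes this complement stood in 22 of 34 (64.7%), against 15.1% of all 10481 detected genes with a 3′ UTR. Beaded filament genes had it in 2 of 6, hexagonal network genes in 1 of 3 and multiplexins in 1 of 2. Col7a1 had 2 such sites and Col28a1 none. Fibrillar genes had it in 9 of 10 and basement membrane genes in 6 of 6, but FACIT genes in 3 of 9 and transmembrane genes in 0 of 4. Their 3′ UTRs also differed in length, with medians of 1364 and 1346.5 bases in fibrillar and basement membrane genes against 769 and 676 in FACIT and transmembrane genes, and the densities were 11.0, 10.3, 5.02 and 0 sites per 10 kilobases in that order. The density was 7.16 sites per 10 kilobases against 1.08 in all coding genes matched, with a median 3′ UTR of 965 against 887 bases. An A followed the site in 18 of 39 cases (46.2%), against 19.0% of 2781 in all genes. Single sites from 4 classes are shown to compare their surroundings, along the transcript with the match in capitals.
Col3a1 (fibrillar, chr1:45348972-45348993, plus strand): aatgtctcaaTGGTGCTataat
Col5a1 (fibrillar, chr2:28038024-28038045, plus strand): ttgtctcttgTGGTGCTatgtg
Col4a1 (basement membrane, chr8:11199757-11199778, minus strand): cgtcacaacaTGGTGCTactcc
Col4a5 (basement membrane, chrX:141688243-141688264, plus strand): ctcccaccaaTGGTGCTaatat
Col6a2 (beaded filament, chr10:76596166-76596187, minus strand): atcccatctgTGGTGCTaatag
Col8a1 (hexagonal network, chr16:57624701-57624722, minus strand): tattctaccaTGGTGCTaatat
These 6 were chosen among sites followed by an A, and the bases before the match differed between them. The sequences describe where the letters stand. MicroRNA levels were not measured in these libraries, and a match is not a measured site of binding.

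RefSeq promoter windows, 250 bases before to 50 after the start, were matched for 35 of the 43 genes, 28 of them detected. Col1a1, Col2a1 and Col5a2, the collagen genes with the largest mean shares of reads, were among those without a window. The motif GGGCGG, counted on both strands, stood in 18 of the 28, against 66.7% of windows of all detected genes, and CCAAT in 9, against 38.9%. CCCTCCCC, which can overlap runs of the same bases, stood in 9, against 14.1%. The windows of Col4a1 and Col4a2 share 78 bases that hold the CCCTCCCC of both, so this site was counted for each gene. The shared bases also hold a GGGCGG, the only one of Col4a1, while Col4a2 had others.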

How the data were processed

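Poly(A) RNA of cultured aortic smooth muscle cells was sequenced with a strand-preserving kit, per the labels' protocols. The submitters' processing notes name GRCm38 and the tools TopHat, cutadapt and Trim Galore. For the counting, its tool, annotation and use of strand were not given in the sources used here, and overlapping genes may therefore share reads. The authors deposited log2 values for 25965 genes in 4 libraries. The values turned out to be log2 of whole reads times a library constant, not divided by length, with genes without reads at 0.9 read. Dividing by the value of 1 read gave whole reads within 0.05 for 99.8%, 99.8%, 99.8% and 99.7% of values. What 1 such read stands for (a fragment or part of it) is not given. Errors and limits of 3 reads for a count of 0 cover counting error only, since reads that carry no molecular identifier are not independent molecules.

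The members, the 9 structural classes, 11 gene lists, 17 pairs and the tests were chosen with earlier results of these data known. Rows of the folding list included Mia3, which was not found. Named genes were all members, with values for the 3 highest of each class and every pair, the 3 highest detected genes of each pathway list, each cartilage gene, and defining markers of other cell types. Undetected genes of the pathway lists, Colgalt1 beside Colgalt2, and the integrin alpha chains were named after their values were seen. Exon lengths, coding exons and 3′ UTRs came from 1 matched GENCODE M21 annotation per gene. The exon and miR-29 comparisons were added after the data were seen. Alternatives were other detection and SD thresholds, median-ratio size factors, other lengths, a pseudocount of 1, means, 3 reads for genes without reads, and leaving out each library. A planned description of triple helices from protein sequences was not run. Tools were matplotlib 3.10.9, pandas 2.3.3, scipy 1.17.1, numpy 2.4.6 and Python 3.11.15, and the calculation was tested on simulated data.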

Additional observations from a re-analysis of the deposited data

Results flagged for a closer look

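Of 69 values examined, 5 had 1 library whose gap to the nearest other was too large a part of the range by Dixon's limit for 4 samples, and chance alone gives about 1 in 20. Col1a1 was at 13.52 in library 3, below the other libraries as deposited. With median-ratio scaling it deviated from its mean by -0.11, 0.04, -0.20 and 0.27 in libraries 1 to 4, and library 3 did not stand apart. Col12a1 was at 8.71 in library 1, above them. Col5a1 minus Col5a2 was -0.92 in library 2, nearer to 0 than in the others. The hexagonal network genes took 2.24% of collagen reads in library 1, and the multiplexins 0.57% in library 2, each above the other libraries.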

How the results depend on the processing

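Pair differences kept their sign in 114 of 119 recalculations, with adjusted p from 0.142 to 1. The exceptions were pairs close to 0. Col4a1 minus Col4a2 was 0.14 without division by length, 0.10 with the longest transcript, and from -0.11 to 0.027 with 1 library left out, the latter without replicate 4. Col15a1 minus Col18a1 was from -0.47 to 0.15 with 1 library left out, and positive without replicate 3 and without replicate 4. With an SD above 1 in place of 0.5, 11 collagen genes varied, which follows from the stricter limit, and leaving out 1 library gave 19 to 23. The share of collagen genes was 1.69% with each gene divided by its length. Means over members in place of medians gave 9.76 for fibrillar, 3.25 for beaded filament, -1.95 for transmembrane and 5.40 for hexagonal network genes. Detected members alone gave 11.28 for beaded filament and 2.11 for transmembrane genes, and 3 reads for genes without reads gave 2.99 for beaded filament genes. With median-ratio size factors, 7 in place of 12 collagen genes were highest in libraries 1 and 4, and 4 in place of 8 in libraries 1 and 2. Leaving out 1 library at a time gave 35 or 36 detected genes and a read share of 3.99% to 4.43%. A level of at least 3 left 26 collagen genes detected, and a level of at least 1 left 34, as did median-ratio size factors. With the threshold in 1 or more libraries, 37 were detected. No paired analysis was possible because all libraries belonged to 1 group. Depth limits the genes near the threshold, such as Col8a2, Col19a1 and Col22a1.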
